A study of Homo sapiens with 36 samples.

Results

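The genes described here are the core subunits of the mTOR kinase complexes and a set of their upstream regulators and effectors: MTOR, RPTOR, MLST8, DEPTOR, RICTOR, TSC1, TSC2, RHEB, LAMTOR2 and RPS6KB1. They are 10 genes of the 58219 listed in the RNA tables and of the 43582 listed in the footprint tables, found by removing the version from each Ensembl identifier and matching it to GENCODE release 29. The set was chosen by gene name with measured RNA and footprint differences of these data in view, that of RPTOR above all, so the values of its members are given as descriptions. The p-values printed for them come from fits over all genes of a table and carry no independent weight.

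The libraries were made from WiT49, an established cell line of anaplastic Wilms tumor, a kidney tumor of childhood. Cells received 2 nM actinomycin D (actD), which intercalates into DNA and can block RNA polymerases, or the vehicle dimethyl sulfoxide (DMSO). They were collected after 6 h, 72 h or 2 weeks. The 2-week groups were passaged through 2 cycles of 7 days, each with 3 days of actD or DMSO and 4 days of plain medium. Total RNA and ribosome footprints, the RNA fragments that translating ribosomes shield from nuclease, were sequenced for every treatment and time, with 3 replicates in each of the 12 groups. All 36 libraries come from this single line, and the labels do not say whether replicates were separate cultures, so the spread between replicates may be partly technical. For RNA at 2 weeks, the title of each library states one treatment and its library name states the other. The library names are followed here, as named actd and named dmso, and by the titles each difference of these libraries has the opposite sign.

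The RNA libraries held 40221994 to 69240041 counts and the footprint libraries 152556 to 1281039, of which 23134 to 283435 lay in protein-coding genes. Of 12 nephron progenitor and Wilms tumor markers, 5 reached 1 CPM (a count relative to the TMM-scaled library total) on average in each RNA table, while SIX2, CITED1, PAX2, EYA1, SALL1, MEOX1 and HOXD11 lay below it. Immune markers summed to at most 2.10 CPM and endothelial markers to at most 1.28 CPM in any RNA library. The mitochondrial ribosomal RNAs took 24.6% to 32.3% of RNA counts under actD and 15.5% to 22.5% under DMSO at 72 h, and 25.8% to 31.2% in libraries named actd and 19.6% to 22.9% in those named dmso at 2 weeks. The arms thus stood apart in this share at both late times, and its part in the results below was not tested. DMSO replicate 3 at 72 h stood away from the other 2 RNA libraries of its group: the chi-square per degree of freedom was 177 and 250 against them and 76.4 between those 2. Results that it moved are given without it as well, or with their range when 1 library was left out.

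mTOR is a protein kinase that couples growth factors and nutrients to protein synthesis and growth. With MLST8 and the scaffold RPTOR (raptor) it forms mTOR complex 1 (mTORC1), which phosphorylates S6 kinase and the 4E-BP repressors of translation, and with MLST8 and RICTOR it forms mTOR complex 2 (mTORC2), which phosphorylates AKT. The GTPase RHEB activates mTORC1, the TSC1-TSC2 complex keeps RHEB inactive, and the Ragulator complex, of which LAMTOR2 is a subunit, anchors the Rag GTPases that bring mTORC1 to the lysosome.

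RPTOR (ENSG00000141564.14, GRCh38 chromosome 17, 80544819 to 80966371, plus strand), the subunit that recruits substrates to mTORC1, had the largest difference of the 10 genes at 6 h and at 2 weeks. At 6 h its RNA was 26.0, 28.6 and 23.1 CPM in the 3 actD libraries and 49.6, 49.4 and 51.4 CPM in the 3 DMSO libraries. Every actD library lay below every DMSO library, and the actD mean was 51.6% of the DMSO mean (25.9 ± 2.7 against 50.1 ± 1.1 CPM, SD, n = 3 each). In bulk RNA, fewer cells that express a gene and less of its RNA per cell cannot be told apart. The log2 fold change was -0.95 (SE 0.12; edgeR quasi-likelihood test, adjusted p = 0.0876). That p-value ranked 7 of 22669 genes, none of which was called at an adjusted p under 0.05 in this comparison, whereas 1862 had an unadjusted p under 0.05 and DESeq2 called 204. RPTOR was among the latter (DESeq2 adjusted p = 1.06e-07), and over 11 alternatives its log2 fold change lay between -1.03 and -0.88 and its adjusted p between 1.06e-07 and 0.723.

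At 72 h RPTOR RNA was 7.63, 8.49 and 14.8 CPM under actD and 26.4, 32.5 and 12.2 CPM under DMSO. The arms overlapped here, because DMSO replicate 3 lay below actD replicate 3. The log2 fold change was -1.20 (SE 0.41; edgeR adjusted p = 0.317), and it was -1.52 without DMSO replicate 3 (edgeR adjusted p = 0.148). A single edgeR fit over all 18 RNA libraries gave -1.17 with an adjusted p of 0.0237, in a range of 0.0237 to 0.685 over the alternatives, where that fit called 4.89% of 24803 genes. At 2 weeks the libraries named actd held 25.0, 21.8 and 20.7 CPM and those named dmso 38.8, 34.2 and 34.5 CPM. The named actd group lay below the named dmso group throughout, at 62.7% of its mean, with a log2 fold change of -0.67 (SE 0.12; edgeR adjusted p = 0.265, and 0.00246 to 0.837 over the alternatives, the lowest with DESeq2). Between 72 h and 6 h the actD effect differed by -0.26 (log2, SE 0.46; edgeR interaction test, adjusted p = 0.922), less than the error, and by -0.59 to 0.05 when 1 library was left out.

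MTOR (ENSG00000198793.12, chromosome 1, 11106535 to 11262507, minus strand), the kinase of both complexes, was 93.4, 92.4 and 88.0 CPM under actD and 113, 108.5 and 112 CPM under DMSO at 6 h. These arms also stood apart, by less than for RPTOR: the actD mean was 82.2% of the DMSO mean and the log2 fold change -0.28 (SE 0.10; edgeR adjusted p = 0.557). At 72 h MTOR was 60.7, 60.4 and 64.9 CPM under actD and 71.9, 79.9 and 55.4 CPM under DMSO, with DMSO replicate 3 again the lowest, and at 2 weeks 92.4, 87.9 and 83.9 against 93.7, 92.9 and 91.2 CPM. The arms overlapped at both times, with log2 fold changes of -0.16 (SE 0.20) and -0.07 (SE 0.10). The 72 h value was -0.30 without DMSO replicate 3 and -0.04 without DMSO replicate 2, and the 2-week value was -0.03 without named actd replicate 3.

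**Figure D1:**
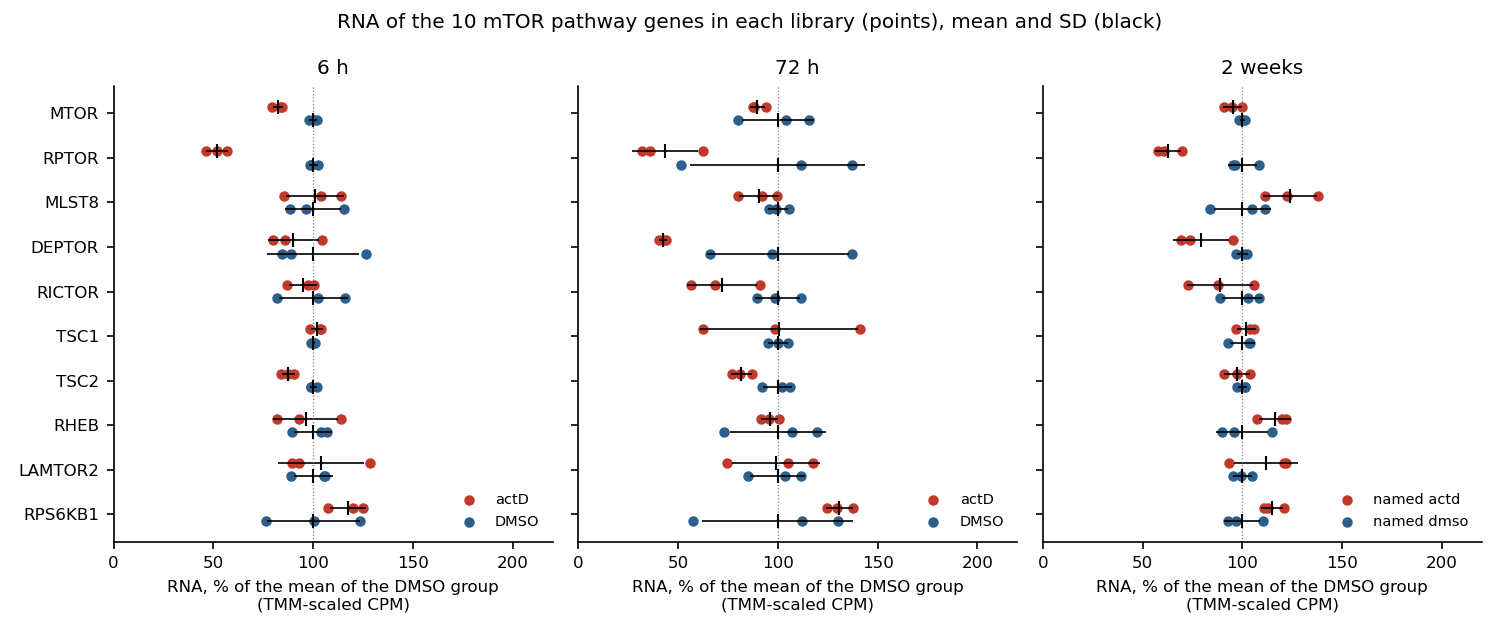
RNA of each gene in each library as a percentage of the mean of the DMSO libraries (named dmso at 2 weeks) of the same time. Red points are actD (named actd at 2 weeks) and blue points DMSO libraries, black bars are the mean and SD of 3 libraries; RPTOR lies at 51.6% at 6 h and 62.7% at 2 weeks with no overlap, and at 72 h DMSO replicate 3 of RPTOR falls among the actD libraries.

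MLST8, the small subunit shared by both complexes, was 12.5, 15.3 and 16.7 CPM under actD and 13.0, 17.0 and 14.1 CPM under DMSO at 6 h. Its arms overlapped at all 3 times, with log2 fold changes of 0.01 (SE 0.16), -0.14 (SE 0.20) and 0.31 (SE 0.15) at 6 h, 72 h and 2 weeks. Leaving out 1 library gave -0.08 to 0.12, -0.22 to -0.07 and 0.20 to 0.40. DEPTOR, a subunit that inhibits mTOR, was the scarcest of the 10. Its RNA was 0.608, 0.555 and 0.594 CPM under actD and 1.34, 0.907 and 1.88 CPM under DMSO at 72 h, so every actD library was lower. The log2 fold change was -1.23 (SE 0.35; edgeR adjusted p = 0.272), -0.94 without DMSO replicate 3, which held the highest value, and an adjusted p of 0.0211 was reached in the single fit over all 18 RNA libraries (0.0211 to 0.653 over the alternatives). At 6 h DEPTOR was 0.827, 0.635 and 0.681 against 1.00, 0.706 and 0.670 CPM, which overlap. At 2 weeks it was 2.40, 3.11 and 2.25 CPM in libraries named actd and 3.33, 3.16 and 3.28 CPM in those named dmso, a log2 fold change of -0.33 (SE 0.20) with no overlap. The difference between the 72 h and 6 h effects on DEPTOR was -1.10 (SE 0.45; edgeR interaction test, unadjusted p = 0.0302, adjusted p = 0.591), and -0.78 without DMSO replicate 3 at 72 h.

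RICTOR (ENSG00000164327.12, chromosome 5, 38937919 to 39074408, minus strand), the scaffold of mTORC2, was 82.9, 80.3 and 71.5 CPM under actD and 67.3, 84.4 and 95.7 CPM under DMSO at 6 h. The log2 fold change was -0.08 (SE 0.15), and the arms overlapped. At 72 h it was 70.3, 84.7 and 113 against 139, 122 and 110.8 CPM, with actD replicate 3 above DMSO replicate 3, and the log2 fold change was -0.47 (SE 0.23; edgeR adjusted p = 0.436). At 2 weeks it was 127, 87.0 and 105 CPM in libraries named actd and 122.9, 130 and 106.4 CPM in those named dmso, a log2 fold change of -0.17 (SE 0.16). Leaving out 1 library moved the RICTOR value between -0.20 and 0.04 at 6 h and between -0.30 and -0.04 at 2 weeks. RICTOR overlaps OSMR on the opposite strand, and MLST8, TSC2 and other members also overlap a gene on the opposite strand. RPTOR overlaps the pseudogene RPL31P7, which held a mean of 6.81 CPM at 72 h and 0.07 and 0.02 CPM at 6 h and 2 weeks. At 72 h RPTOR itself held means of 10.3 CPM under actD and 23.7 CPM under DMSO. The labels name stranded kits but not whether the counting used strand, so reads of such pairs may not be told apart.

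The ratio of RPTOR to RICTOR counts within a library sets the scaffold of mTORC1 against that of mTORC2 without any scaling between libraries. At 6 h RPTOR counts were 31.4%, 35.6% and 32.3% of RICTOR counts under actD and 73.7%, 58.6% and 53.7% under DMSO. The arms stood apart, with a mean log2 difference of -0.89. At 72 h the percentages were 10.9, 10.0 and 13.1 under actD and 19.1, 26.6 and 11.0 under DMSO, so the arms overlapped through DMSO replicate 3. At 2 weeks they were 19.7, 25.0 and 19.7 in libraries named actd and 31.5, 26.4 and 32.4 in those named dmso, apart again, with a mean log2 difference of -0.49. RPTOR relative to MTOR, the kinase it binds, showed the same arrangement. It was 27.8%, 30.9% and 26.3% against 43.9%, 45.5% and 46.1% at 6 h, overlapping at 72 h, and 27.0%, 24.8% and 24.6% against 41.4%, 36.8% and 37.8% at 2 weeks. RICTOR relative to MTOR overlapped between the arms at all 3 times.

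**Figure D2:**
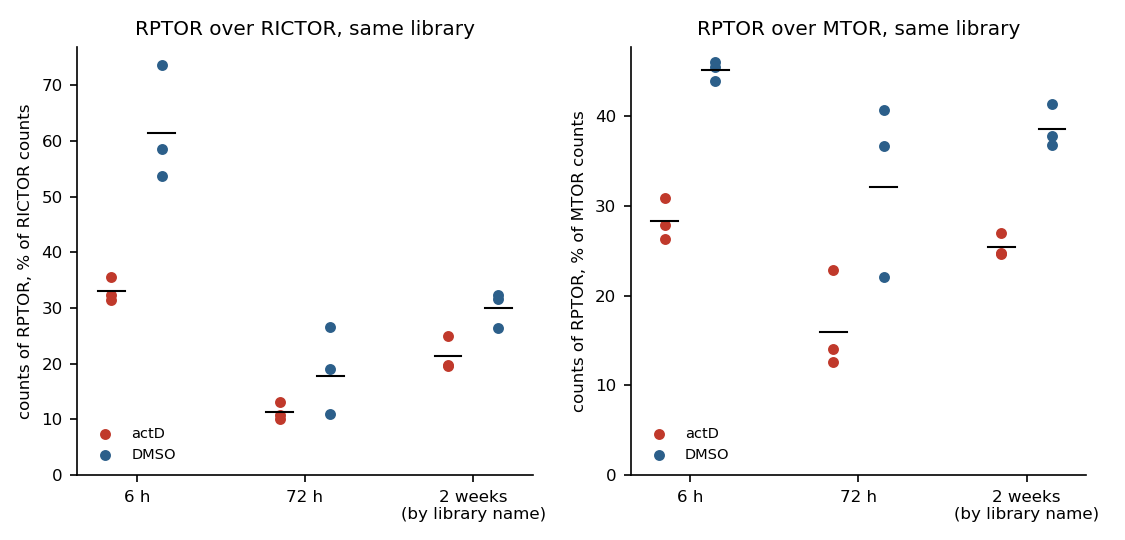
Counts of RPTOR as a percentage of RICTOR counts (left) and of MTOR counts (right) in the same RNA library, 3 libraries per arm (points) with their geometric mean (line). At 6 h all actD libraries lie at 31.4% to 35.6% of RICTOR and all DMSO libraries at 53.7% to 73.7%, and the arms overlap at 72 h only.

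The promoter windows of RPTOR, MTOR and RICTOR, the scaffolds of the 2 complexes and their kinase, are shown so that the sites at which actinomycin D can bind DNA can be read beside their RNA values. Each runs from 250 bases before to 50 bases after the gene's start in RefSeq (GRCh38.p14), 5′ to 3′ on the gene's strand. Capitals mark each GC step, the dinucleotide at which actinomycin D is known to intercalate and which reads the same on both strands.
RPTOR, chr17:80544588-80544887, plus strand: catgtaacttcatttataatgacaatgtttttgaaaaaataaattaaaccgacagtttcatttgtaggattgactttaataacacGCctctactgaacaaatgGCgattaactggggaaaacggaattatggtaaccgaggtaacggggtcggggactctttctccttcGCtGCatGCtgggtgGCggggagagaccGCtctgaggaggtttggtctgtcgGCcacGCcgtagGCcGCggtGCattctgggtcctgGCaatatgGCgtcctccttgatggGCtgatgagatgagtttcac
MTOR, chr1:11262502-11262801, minus strand: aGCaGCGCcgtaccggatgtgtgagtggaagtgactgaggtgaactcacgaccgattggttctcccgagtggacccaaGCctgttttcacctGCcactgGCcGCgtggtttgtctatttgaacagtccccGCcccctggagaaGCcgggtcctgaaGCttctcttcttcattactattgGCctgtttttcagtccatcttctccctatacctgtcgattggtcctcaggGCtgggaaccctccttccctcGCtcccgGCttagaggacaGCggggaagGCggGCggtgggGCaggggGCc
RICTOR, chr5:39074350-39074649, minus strand: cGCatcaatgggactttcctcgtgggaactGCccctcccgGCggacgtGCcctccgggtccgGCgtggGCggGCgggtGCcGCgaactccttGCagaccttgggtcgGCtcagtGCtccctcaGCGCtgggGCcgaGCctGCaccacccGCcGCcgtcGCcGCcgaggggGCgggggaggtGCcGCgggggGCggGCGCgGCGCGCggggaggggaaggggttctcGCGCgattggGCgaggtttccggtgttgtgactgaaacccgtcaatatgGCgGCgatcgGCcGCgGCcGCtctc
RPTOR held 15 GC steps, MTOR 19 and RICTOR 39, against a median of 25 in 35116 promoter windows of the same length, of which 1 held none. Of all windows, 24.6% held as few as RPTOR or fewer, 36.4% as few as MTOR and 83.2% as few as RICTOR. TSC2 held 40 and 41 in its 2 windows. The other members with a window held 22 (TSC1), 25 (LAMTOR2), 30 (RHEB) and 37 (RPS6KB1), and 8 of the 10 genes were found in the table. The GC box GGGCGG, searched on both strands and itself holding a GC step, was found 0 times in RPTOR, 2 times in MTOR and 4 times in RICTOR, and in 45.0% of all windows. The E-box CACGTG was found in 1 window of TSC2 and in no other window of the members, against 7.26% of all windows. These matches describe letters in a window, and no binding was measured. A relation between GC steps and RNA differences was not tested.

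TSC2 (ENSG00000103197.17, chromosome 16, 2047465 to 2089487, plus strand), the subunit of the TSC complex that switches RHEB off, was 40.7, 43.9 and 42.4 CPM under actD and 47.9, 48.0 and 49.4 CPM under DMSO at 6 h. It was 21.1, 22.1 and 23.9 against 25.1, 29.0 and 27.9 CPM at 72 h. The arms stood apart at both times, at 87.4% and 81.7% of the DMSO mean (log2 fold changes -0.19, SE 0.10, and -0.29, SE 0.18; edgeR adjusted p = 0.660 and 0.526). At 2 weeks they overlapped (-0.04, SE 0.10). PKD1, which overlaps TSC2 on the opposite strand, was expressed at a mean of 67.1, 23.1 and 59.3 CPM in the 3 tables, so its reads could enter the TSC2 value if strand was not used. TSC1, the stabilizing subunit of the same complex, was 70.3, 70.6 and 67.0 against 67.3, 68.4 and 68.1 CPM at 6 h, a log2 fold change of 0.03 (SE 0.10). At 72 h its actD libraries spread widely, at 57.4, 36.3 and 82.3 CPM, around DMSO libraries at 58.2, 61.2 and 55.4 CPM. The log2 fold change of TSC1 at 72 h was 0.01, but -0.32 without actD replicate 3 and 0.26 without actD replicate 2.

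RHEB, the GTPase that switches mTORC1 on, was 63.3, 72.1 and 88.3 against 82.9, 80.4 and 69.2 CPM at 6 h and 57.2, 52.2 and 54.3 against 68.2, 41.6 and 61.0 CPM at 72 h. The arms overlapped at these times and at 2 weeks, and the log2 fold changes were -0.06 (SE 0.15), -0.06 (SE 0.22) and 0.22 (SE 0.13). Leaving out 1 library gave -0.20 to 0.05, -0.25 to 0.08 and 0.15 to 0.33. LAMTOR2 (ENSG00000116586.11, chromosome 1, 156054752 to 156058510, plus strand), the Ragulator subunit, was 31.6, 32.9 and 45.4 against 37.5, 37.1 and 31.4 CPM at 6 h and 37.2, 41.5 and 26.3 against 36.6, 39.5 and 30.0 CPM at 72 h. Its RNA log2 fold changes were 0.05 (SE 0.16), -0.01 (SE 0.23) and 0.16 (SE 0.13), each smaller than or near its error, and -0.13 to 0.15, -0.15 to 0.15 and 0.10 to 0.29 with 1 library left out.

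RPS6KB1, which encodes S6 kinase 1, the mTORC1 substrate that phosphorylates ribosomal protein S6, shared with TSC1 a log2 fold change above 0 at all 3 times, and its values were the larger. At 6 h it was 88.3, 84.8 and 75.8 CPM under actD and 70.9, 87.0 and 54.0 CPM under DMSO, and at 72 h 87.5, 91.2 and 96.9 against 40.5, 78.8 and 91.5 CPM. The arms overlapped at both times, and at 72 h the log2 fold change of 0.39 (SE 0.30) was 0.09 without DMSO replicate 1 and 0.62 without DMSO replicate 3. At 2 weeks the libraries named actd held 67.4, 68.9 and 73.7 CPM and those named dmso 56.7, 59.1 and 67.2 CPM, which do not overlap. That log2 fold change was 0.20 (SE 0.11; edgeR adjusted p = 0.638), and 0.05 when scaled by library totals alone. This other scaling moved the median of all genes at 2 weeks by -0.15. The 2-week values of other members were lower with it too, at 0.07 for RHEB, 0.006 for LAMTOR2, -0.22 for MTOR and -0.12 for TSC1.

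Taking the 10 genes as a list, 0 were called by edgeR in RNA at any time, against 0%, 0.00472% and 0% of all genes tested at 6 h, 72 h and 2 weeks. An unadjusted p under 0.05 was reached by 2, 2 and 1 of them, against 8.21%, 13.1% and 8.93% of all genes, and DESeq2 called 1, 0 and 1, RPTOR both times, against 0.9%, 2.85% and 0.932%. In the interaction of 72 h with 6 h, edgeR and DESeq2 called 0 of the 10, against 0.0165% and 0.652% of 24251 genes, and 1 of the 10 had an unadjusted p under 0.05, against 8.02%. At 6 h the arms did not overlap for 3 members, RPTOR, MTOR and TSC2, all lower under actD, where 8.17% of all genes tested were apart and lower, and for 0 members higher, where 7.66% were. At 72 h this held for 2 members, DEPTOR and TSC2, against a background of 10.3%, and for 0 members in the higher direction, against 10.5%. At 2 weeks it held for RPTOR and DEPTOR, lower in libraries named actd, against 7.83%, and for RPS6KB1, higher, against 7.86%. No member was apart in the same direction in all 3 RNA tables, which was the case for 0.928% of 19404 genes in the lower and 0.247% in the higher direction. The members' median log2 fold change was -0.07 at 6 h, -0.15 at 72 h (-0.23 without DMSO replicate 3 and -0.26 without actD replicate 3) and -0.01 at 2 weeks, beside 0.02, 0.02 and -0.02 for all genes tested. With 6, 8 and 5 of the 10 below 0, the members lay on both sides of 0, and the values farthest from 0 were those of RPTOR and, at 72 h, DEPTOR.

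**Figure D3:**
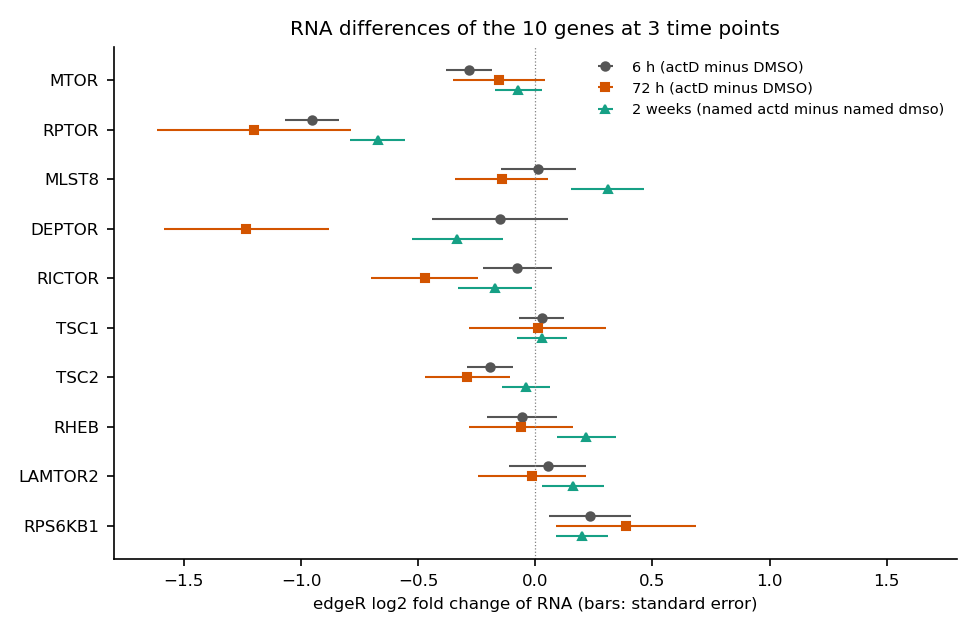
edgeR log2 fold change of RNA for each of the 10 genes at 6 h (circles), 72 h (squares) and 2 weeks (triangles, named actd minus named dmso), with bars of 1 standard error. RPTOR lies at -0.95, -1.20 and -0.67, DEPTOR at -1.23 at 72 h, and the other values lie between -0.47 and 0.39.

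The members differ widely in the length of genome they occupy, from 3759 bp for LAMTOR2 to 421553 bp for RPTOR. In all 3 RNA tables the median log2 fold change of protein-coding genes was lower the longer the genomic span. At 6 h it was 0.04 for genes under 10 kb and -0.13 for the 382 genes of 400 kb or more. At 72 h it ran from 0.11 to -0.59 and at 2 weeks from 0.03 to -0.24. RPTOR lay below the median of its own class at each time: 11 of 382 genes of that length were lower than RPTOR at 6 h, 66 of 367 at 72 h and 48 of 373 at 2 weeks. At 72 h RPTOR lay below the lower quartile of -1.03. Its difference was in view when the set was chosen, so these ranks are descriptions and carry no independent weight. DEPTOR at 72 h, with a span of 177197 bp, lay below the lower quartile of -0.53 for genes of 100 to 200 kb. MTOR and RICTOR fall in the same class, at -0.16 and -0.47 with a class median of -0.22 at 72 h. The part of span in the values of single members was not tested.

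**Figure D4:**
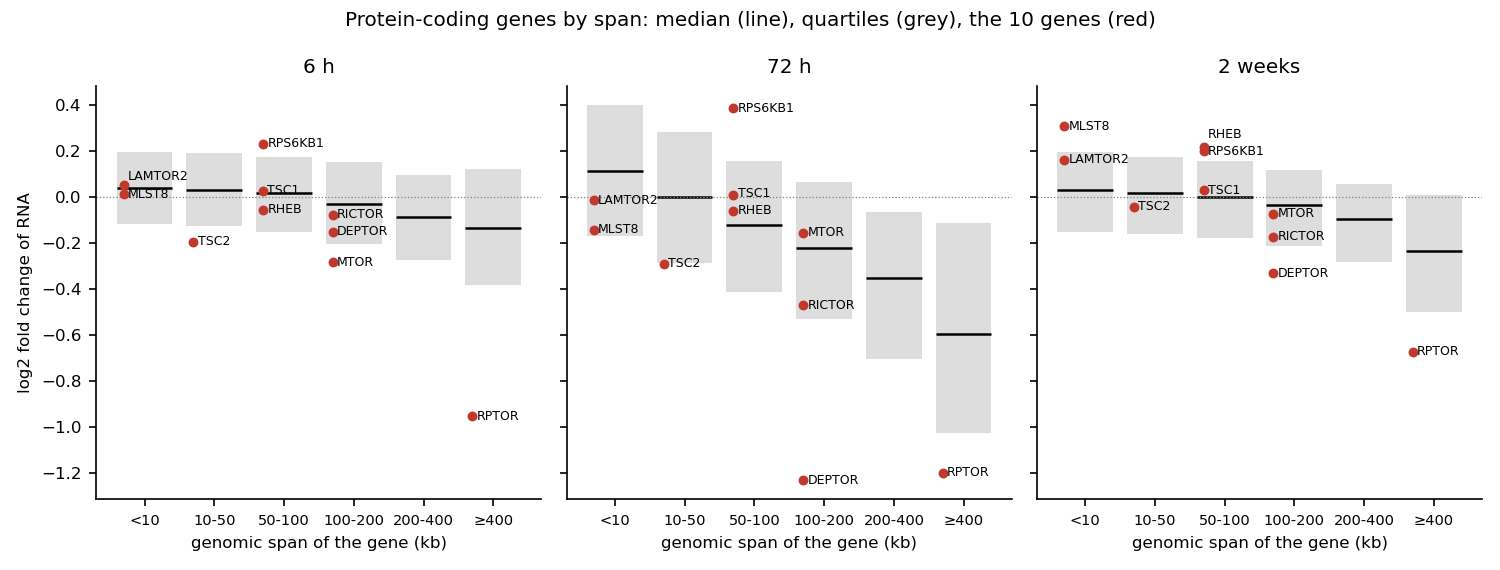
Log2 fold change of RNA (vertical axis) of all tested protein-coding genes by genomic span in kb (horizontal axis), as class medians (black lines) and quartiles (grey), with the 10 genes as red points. The class medians descend with span at each time, to -0.13, -0.59 and -0.24 for the longest genes, and RPTOR lies below the grey range of its class at all 3 times.

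The members except DEPTOR, which was left out, were correlated across the 18 RNA libraries, with log2 CPM centred within each table. Among them RPTOR varied most closely with MTOR (Pearson r = 0.88), followed by TSC2 (0.74) and RICTOR (0.70), and ran opposite to RPS6KB1 (-0.59). These are descriptions over libraries that share treatment, time and depth. Of 12279 protein-coding genes compared, those most like RPTOR were MAD1L1 (r = 0.97), which encodes a spindle checkpoint protein, ZZEF1 (0.97) and ARHGEF7 (0.96), a guanine nucleotide exchange factor. MAD1L1 spans 417 kb, near the span of RPTOR, and its log2 fold changes were -0.82, -1.22 and -0.70 at 6 h, 72 h and 2 weeks. The others were shorter and their differences smaller. ZZEF1 spans 139 kb, with -0.35, -0.42 and -0.27, and ARHGEF7 spans 191 kb, with -0.51, -0.60 and -0.28. Those most like MTOR were CHTOP, POLR1A, which encodes the largest subunit of RNA polymerase I, and AATK, each with r = 0.94.

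The order of the members' levels was read per kb of exon in the DMSO libraries. The length joins the exons of all annotated transcripts of a gene, from 1438 bp for LAMTOR2 to 19626 bp for TSC2. The order therefore depends on the annotation and may differ from one by the transcripts in use. At 6 h LAMTOR2 was highest at 24.6 ± 2.4 CPM per kb and RHEB next at 21.9 ± 2.1, and these did not differ beyond their spread. RPS6KB1 (9.19 ± 2.1) and MTOR (9.16 ± 0.18) followed with overlapping values, then RICTOR (6.08 ± 1.1) and RPTOR (4.87 ± 0.11), whose libraries also overlapped. TSC1 (3.86 ± 0.033), MLST8 (3.40 ± 0.48) and TSC2 (2.47 ± 0.042) were lower, and DEPTOR was lowest at 0.303 ± 0.070 (all SD, n = 3). By their means, LAMTOR2 was first, RHEB second and DEPTOR last in all 3 tables. At 72 h the libraries of RHEB overlapped with those of RPS6KB1, the next gene. RPTOR stood above TSC1 and MLST8 at 6 h, below both at 72 h (2.30 ± 1.0 CPM per kb, overlapping with both, and 2.86 without DMSO replicate 3) and between them at 2 weeks (3.48 ± 0.25), while the 3 tables carry separate scales. At 2 weeks RHEB, RICTOR, RPS6KB1 and MTOR, in this order, each overlapped with the next.

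The other genes of the pathway were read from 9 lists with 77 genes beside the members, chosen with earlier results of these data known. In RNA, 0 of these 77 were called by edgeR at 6 h, 0 of 76 tested at 72 h and 0 of 77 at 2 weeks, and 12, 14 and 4 had an unadjusted p under 0.05, against the 8.21%, 13.1% and 8.93% of all genes tested given above. At 6 h 35 of the 77 were below 0 and the median was 0.02, the same as for all genes. At 72 h 46 of 76 were below 0 and the median was -0.18, beside 0.02 for all genes. At 2 weeks 39 of 77 were below 0 with a median near 0 (-0.001). DESeq2 called DDIT4L at 6 h and SEC13, FNIP1 and EIF4B at 72 h, 1 and 3 genes, and 0 of the 77 at 2 weeks, beside the 0.9%, 2.85% and 0.932% of all genes given above. The arms stood apart for 12 of the 77 lower and 7 higher at 6 h, 17 and 7 of 76 at 72 h and 3 and 5 of 77 at 2 weeks. Of all genes tested, 8.17% were apart and lower and 7.66% apart and higher at 6 h. These shares were 10.3% and 10.5% at 72 h and 7.83% and 7.86% at 2 weeks.

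By role, the TTT complex, the chaperone adaptor that assembles mTOR, had all 3 subunits below 0 at 6 h (median -0.37) and at 72 h (-0.29). TELO2, one of them, was 20.5, 21.3 and 17.1 CPM under actD and 27.1, 24.4 and 24.5 CPM under DMSO at 6 h, apart, with a log2 fold change of -0.37 (SE 0.13; edgeR adjusted p = 0.557). Ragulator and Rag genes, the lysosomal anchor, were above 0 for 8 of 9 at 6 h (median 0.11) and 7 of 9 at 2 weeks (0.16), and for 4 of 9 at 72 h (-0.01). At 6 h 0 of these 9 were apart and 0 had an unadjusted p under 0.05. Of all genes tested, 47.0%, 48.6% and 53.2% were below 0 at 6 h, 72 h and 2 weeks, with medians of 0.02, 0.02 and -0.02. At 2 weeks RRAGC, a Rag GTPase, was 23.8, 23.0 and 27.1 CPM in libraries named actd and 15.1, 17.5 and 20.8 CPM in those named dmso, a log2 fold change of 0.47 (SE 0.14; edgeR adjusted p = 0.463). LAMTOR3 (0.30, SE 0.11) and LAMTOR4 (0.24, SE 0.10), which encode further Ragulator subunits, were also higher in every named actd library. With the library names kept, their lowest values over the alternatives were 0.16 and 0.09. RRAGA, another Rag GTPase, was lower in every actD library at 72 h (7.36, 6.25 and 7.76 against 12, 10.3 and 12.2 CPM), with a log2 fold change of -0.69 (SE 0.21; edgeR adjusted p = 0.284). Of the accessory subunits of mTORC2, PRR5 was at -0.38 (SE 0.15) and PRR5L at 0.57 (SE 0.26) at 2 weeks, both with overlapping groups, and PRR5L was at 0.88 without named dmso replicate 3.

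Among the stress inputs, DDIT4 (REDD1), which inhibits mTORC1 through the TSC complex, was 13.8, 14.6 and 17.6 CPM under actD and 10.6, 10.3 and 8.88 CPM under DMSO at 6 h. Its log2 fold change was 0.63 (SE 0.15; edgeR adjusted p = 0.364). Its relative DDIT4L was 1.48, 1.98 and 2.62 against 0.741, 0.706 and 1.01 CPM, a log2 fold change of 1.30 (SE 0.29; edgeR adjusted p = 0.336; 0.0222 to 0.780 over the alternatives, the lowest with DESeq2). PRKAB2, a regulatory subunit of AMPK, the energy sensor that restrains mTORC1, was at 0.36 (SE 0.10). SESN3, a sestrin that inhibits mTORC1 through GATOR2, was at 0.71 (SE 0.24), and 0.44 without actD replicate 3. The arms stood apart and actD was higher for these 4 genes at 6 h, while 4 of the 9 genes of the AMPK and stress list were below 0. SESN3 belongs to the list of nutrient sensors and folliculin. Of its 10 genes, 4 were below 0, 2 were apart and lower and 2 apart and higher. PIK3CD, a catalytic subunit of PI3-kinase, was lower in every actD library at that time, at 5.29, 4.92 and 3.48 against 8.08, 6.62 and 7.62 CPM (log2 fold change -0.71, SE 0.20; edgeR adjusted p = 0.457).

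At 72 h SEC13, a GATOR2 subunit that also serves in vesicle coats and nuclear pores, was 54.6, 57.9 and 42.7 CPM under actD and 88.7, 78.6 and 116 CPM under DMSO (log2 fold change -0.87, SE 0.22; edgeR adjusted p = 0.263, 0.0384 to 0.653 over the alternatives, the lowest with DESeq2). Without DMSO replicate 3, which held its highest value, the log2 fold change of SEC13 was -0.70. FNIP1, the partner of folliculin in Rag signaling, was 63.0, 59.8 and 57.8 against 98.1, 88.2 and 89.1 CPM, with close replicates in both arms (-0.61, SE 0.17; edgeR adjusted p = 0.267, 0.00865 to 0.653 over the alternatives, the lowest in the single fit over all 18 RNA libraries). AKT1, the kinase that inhibits TSC2, was the named gene with the opposite sign, at 47.1, 75.4 and 65.9 against 33.3, 39.1 and 33.1 CPM (0.84, SE 0.22; edgeR adjusted p = 0.265). Of the effectors, the translation factor EIF4B was at -1.19 (SE 0.33) and the mTORC1 substrate EIF4EBP1 (4E-BP1) at -0.90 (SE 0.27). Both were lower in every actD library, and both rested in part on DMSO replicate 3, which held 572 CPM of EIF4B against 257 and 291 and 114 CPM of EIF4EBP1 against 62.5 and 69.9. Without it the log2 fold changes were -0.75 and -0.59.

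Footprints were too few to follow most members. Of the 10 genes, 0, 1 and 0 passed the filter on low counts at 6 h, 72 h and 2 weeks, and their counts together came to 22 and 49 in the actD and DMSO arms at 6 h, 226 and 70 at 72 h and 61 and 52 at 2 weeks. Per 100000 protein-coding footprint counts of the same library they took 21.4 ± 6.6 under actD and 25.1 ± 7.3 under DMSO at 6 h, 31.5 ± 6.7 and 27.3 ± 7.6 at 72 h, and 30.4 ± 4.2 and 26.4 ± 12 at 2 weeks (SD, n = 3 each). The arms differed by less than the SD at each time. Without LAMTOR2, which had counts in the actD arm alone at 72 h, the values there were 23.2 ± 6.2 and 27.3 ± 7.6, the lower now under actD. DEPTOR had 0 counts in all 18 footprint libraries, which allows up to 3 counts in each. RICTOR had 4, 3 and 3 counts under actD and 7, 7 and 4 under DMSO at 6 h, in sum more than any other member in each arm. At 72 h MLST8 had 19, 6 and 14 against 9, 6 and 1, TSC1 8, 3 and 18 against 6, 5 and 2, and RPTOR 0, 0 and 2 against 1, 1 and 0. RICTOR had 6, 3 and 13 against 12, 7 and 2 counts at 72 h, which is 8.96, 8.16 and 15.5 against 27.1, 23.5 and 24.9 CPM, lower in every actD library. TSC2 (10, 4 and 10 against 3, 2 and 0 counts) and RPS6KB1 (11, 2 and 5 against 2, 0 and 0) were higher in CPM in every actD library, with counts of 0 in DMSO libraries that allow up to 37.3 CPM. For RPS6KB1 this rested on actD replicate 2 and DMSO replicate 1, with 2 counts each (5.44 against 4.52 CPM). Per 100000 protein-coding counts the order of that pair reversed, so the RPS6KB1 arms overlapped on that scale. None of RICTOR, TSC2 and RPS6KB1 passed the filter or was tested, and among the genes tested 16.2% were apart and lower and 19.5% apart and higher. A difference in RPTOR footprints of the size seen in RNA was not detectable at this depth. These floors and counts cover counting error only.

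LAMTOR2 was the member that passed, through the actD arm alone, so a difference was a condition of its being tested. At 72 h its footprint counts were 23, 10 and 25 in the actD libraries and 0, 0 and 0 in the DMSO libraries, while its RNA log2 fold change was -0.01 (SE 0.23). The DMSO libraries were shallower, with 26831 to 121227 protein-coding counts against 127856 to 283435 under actD. Per 100000 such counts LAMTOR2 took 8.11, 7.82 and 8.93 in the actD libraries, and a count of 0 allows up to 2.47, 3.63 and 11.2 in the DMSO libraries. DMSO replicates 1 and 2 therefore lay below the actD values, and DMSO replicate 3 was too shallow to tell. With each DMSO library at its floor of 3 counts and the actD counts taken as exact, the mean of LAMTOR2 footprints was 1.44-fold higher under actD on this scale, and 1.69-fold on the CPM scale. The counting error of the actD libraries is not in these ratios. The lowest actD value was 0.70 and 0.73 of the highest DMSO floor on the same scales. LAMTOR2 was among the 92 of 2426 genes (3.79%; 1.61% in the higher direction) called in footprints (edgeR adjusted p = 0.0473; 0.00633 to 0.212 over the alternatives). It was also among the 10 of 2311 (0.433%) called in translational efficiency, the footprint value relative to the RNA value (edgeR interaction test, adjusted p = 0.00914; 0.00668 to 0.105 over the alternatives). The footprint call was lost in the fits that left out actD replicate 1, actD replicate 2, DMSO replicate 1 or DMSO replicate 2 (edgeR adjusted p = 0.160, 0.130, 0.212 and 0.169), and the efficiency call without DMSO replicate 1 of the footprints (0.0571).

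**Figure D5:**
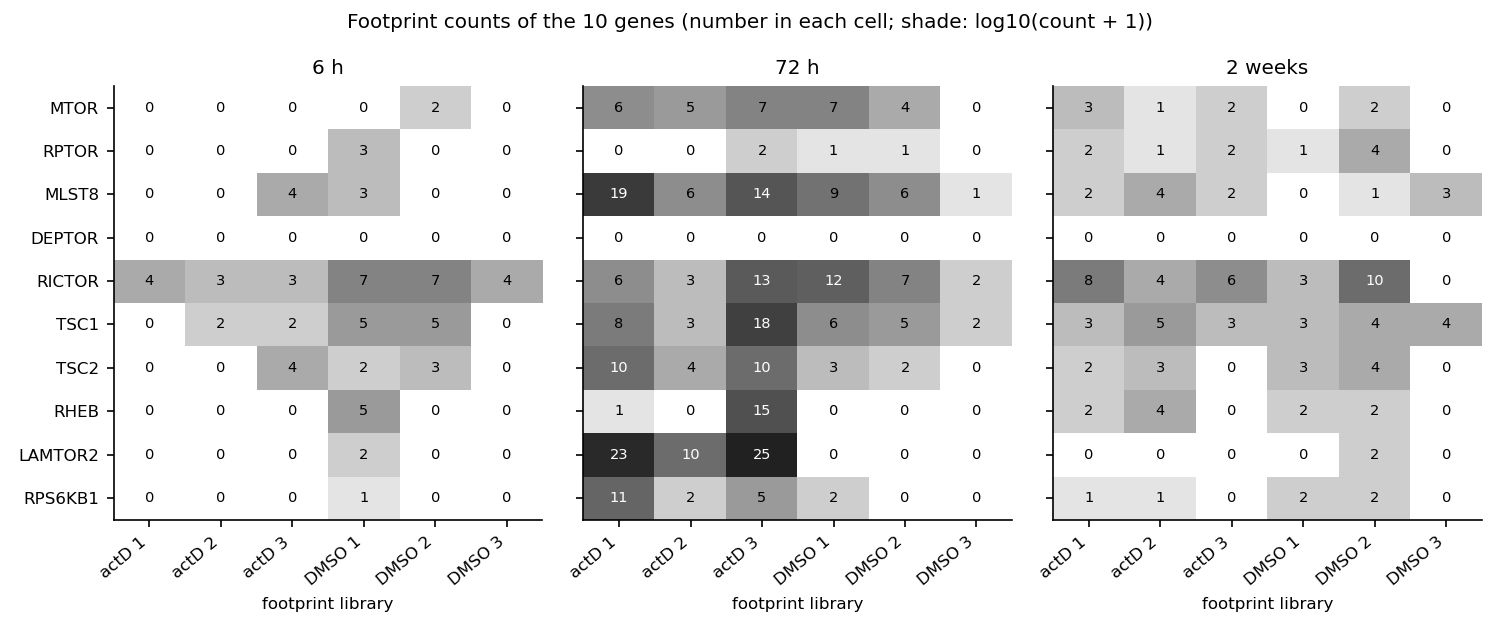
Footprint counts of the 10 genes in each footprint library at 6 h, 72 h and 2 weeks, written in the cells and shaded by log10(count + 1). LAMTOR2 has 23, 10 and 25 counts in the actD libraries and 0 in the DMSO libraries at 72 h, and DEPTOR has 0 in all 18 libraries.

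At the other times LAMTOR2 had 2 counts in 1 DMSO library at 6 h and in 1 at 2 weeks and 0 in all others, actD included. Its partners in Ragulator did not pass the filter. At 72 h LAMTOR1 had 12, 7 and 10 counts under actD and 5, 3 and 0 under DMSO, and LAMTOR4 had 9, 6 and 20 against 3, 0 and 1. LAMTOR3 had 0 in all 6 libraries and LAMTOR5 a single count. Per 100000 protein-coding counts LAMTOR1 was at 4.23, 5.47 and 3.57 against 4.12, 3.63 and 0, and LAMTOR4 at 3.18, 4.69 and 7.14 against 2.47, 0 and 3.73. The arms of both overlapped on this scale. In TMM-scaled CPM both were higher in every actD library, and 19.5% of the genes tested were apart and higher. The counts of 0 in DMSO libraries allow up to 37.3 CPM for LAMTOR1 and 10.1 CPM for LAMTOR4. The highest DMSO value of LAMTOR4 in CPM rested on 1 count. Neither gene was tested.

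Of the 77 other pathway genes, 2, 8 and 8 passed the filter in footprints at 6 h, 72 h and 2 weeks, and 0 were called at any time by edgeR or DESeq2, against 0%, 3.79% and 0% of all genes tested by edgeR. An unadjusted p under 0.05 was reached by 0, 1 and 0 of them, against 3.14%, 27.3% and 8.57% of all genes tested. The genes that passed at 6 h were FNIP1 (log2 fold change 0.30, SE 0.52) and TTI1, a TTT subunit (-0.21, SE 0.45). Leaving out 1 library gave -0.31 to 0.60 for FNIP1, the lowest without actD replicate 2, and -0.54 to -0.03 for TTI1. At 72 h RPS6, the ribosomal protein phosphorylated by S6 kinase, was 73.2, 92.4 and 167 CPM under actD and 27.1, 63.7 and 12.4 CPM under DMSO, apart (1.54, SE 0.56; edgeR adjusted p = 0.130). Its lowest value rests on 1 count, and near-identical pseudogenes make its counting uncertain. FNIP1 footprints were lower in every actD library, at 47.8, 32.6 and 46.4 against 63.3, 63.7 and 112 CPM (-0.80, SE 0.36, and -0.53 without DMSO replicate 3; edgeR adjusted p = 0.196), in the same direction as its RNA and as the 16.2% of genes tested that were apart and lower. Its translational efficiency differed by -0.30 (SE 0.36; edgeR adjusted p = 0.816), less than its error. LARP1, the mTORC1 substrate that represses ribosomal protein mRNAs, was at -0.72 (SE 0.37) and PRKAA1, the catalytic subunit of AMPK, at 0.78 (SE 0.50), both overlapping, and PRKAA1 was at 1.68 without DMSO replicate 1 and at 0.38 to 1.68 over all such fits. At 2 weeks LARP1 was at -0.57 (SE 0.34), FNIP1 at 0.40 (SE 0.24), EIF4EBP2 at -0.33 (SE 0.39) and TTI1 at 0.23 (SE 0.42). With 1 library left out these were -0.78 to -0.31, 0.31 to 0.59, -0.59 to -0.07 and -0.07 to 0.55, so TTI1 also changed sign. In translational efficiency, edgeR and DESeq2 called 0 of the 8 tested at 72 h, and 1, RPS6, had an unadjusted p under 0.05 (0.0164, adjusted 0.245), against 14.9% of all genes tested.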

How the data were processed

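Total RNA and ribosome footprints of WiT49 cells were measured in 18 libraries each, 3 per group. The values deposited by the authors are used as estimated counts (expected counts) per gene, 1 table per assay and time. HISAT2, StringTie and hg38 are named, without versions, in the submitters' processing notes. Their order, the handling of multiply mapped reads and the use of strand are not given in the sources used here. The values were whole numbers. Small values in the 6 h and 2-week RNA tables pile up at multiples above 1 count, so counting floors are given for footprints only. Of the identifiers, 99.3% matched GENCODE release 29, which gave symbols and GRCh38 coordinates. Several extraction and library kits are named in the labels' protocols without saying which library used which, so such a batch could not be examined.

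The test across genes was the two-sided quasi-likelihood test of edgeR 4.0.16 under R 4.3.3, with TMM scaling, filterByExpr and Benjamini-Hochberg adjustment over all genes tested in a table, with a threshold of 0.05. The interaction of assay with treatment, with TMM factors within each assay, tested translational efficiency, and that of treatment with time compared 72 h with 6 h. RNA at 2 weeks stayed out of the latter because its labels conflict. Alternatives were DESeq2 1.42.0, library totals without TMM, a looser filter of 10 counts in all, a replicate block, a single fit over 18 RNA libraries, the titles of the 2-week libraries and leaving out each library in turn. Whether equal replicate numbers mark pairs was checked by correlating deviations from the group means. A count of 0 allows up to 3 counts. The scripts were tested on simulated data. Every value column was used.

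The members and lists were chosen with earlier results of these data known. Named beside the members were pathway genes with an adjusted p under 0.05, otherwise the up to 6 with the smallest unadjusted p in each RNA comparison and up to 4 in each footprint comparison. The 3 genes most like MTOR and RPTOR were chosen by Pearson r among protein-coding genes with at least 1 CPM on average in every RNA table. DDIT4 at 72 h is given because its sign differed from that at 6 h.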

Additional observations from a re-analysis of the deposited data

Results flagged for a closer look

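DDIT4 RNA was above DMSO in every actD library at 6 h and below it in every actD library at 72 h. Its log2 fold change was 0.63 at 6 h and -1.57 (SE 0.53; edgeR adjusted p = 0.307) at 72 h, where the actD libraries held 17.2, 18.8 and 15.3 CPM and the DMSO libraries 22.0, 31.8 and 98.7 CPM. DMSO replicate 3 held the highest value, and without it the 72 h log2 fold change was -0.66. The difference between the effects was -2.23 (SE 0.60; edgeR interaction test, adjusted p = 0.437, and 0.0393 to 0.689 over the alternatives, the lowest with DESeq2). Without DMSO replicate 3 at 72 h that difference was -1.28.

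DDIT4L RNA was above DMSO in every actD library at 6 h (log2 fold change 1.30) and lower in every 2-week library named actd than in those named dmso (-0.54). This difference between times was not tested, because the labels of the 2-week RNA libraries conflict, and by their titles the second value is of the same sign as the first.

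FNIP1 footprints were lower in every actD library at 72 h (-0.80) and higher in every actD library at 2 weeks (0.40). At 2 weeks they were 22.8, 25.1 and 24.8 CPM under actD and 15.5, 21.6 and 16.6 CPM under DMSO. The difference between these times was not tested.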

How the results depend on the processing

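Of the 526 values of single members under alternatives, 498 moved by less than the spread between replicates or kept their call, 19 moved by more and 9 lost a call. Gained calls have no class of their own and are among the 498. They were RPTOR with DESeq2 at 6 h and 2 weeks, and RPTOR and DEPTOR at 72 h in the single fit over all 18 RNA libraries. The RNA direction of RPTOR was the same under all alternatives at 6 h and 72 h, and at 2 weeks under all except the titles. With DESeq2, RNA calls among the 87 pathway genes went from 0 to 2 at 6 h (RPTOR and DDIT4L), 3 at 72 h, 1 at 2 weeks (RPTOR) and 1 (DDIT4) in the interaction of 72 h with 6 h. A single fit over all 18 RNA libraries called 13 at 72 h, RPTOR and DEPTOR among them, and 1212 of all 24803 genes, where the fit of that table alone called 1 of 21195. With library totals the members' median at 2 weeks was -0.16 in place of -0.01. The 1 footprint call at 72 h, LAMTOR2, went to 0 with library totals (edgeR adjusted p = 0.0869) and with the looser filter (0.168). Leaving out 1 library gave 0 to 1 footprint calls and 0 to 1 efficiency calls at 72 h. The causes were not tested.

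The replicate numbers were not taken as pairs, because not every same-numbered pair had a correlation of deviations above 0.1. At 72 h the correlations were 0.074, 0.25 and 0.16 for RNA of actD and DMSO, 0.041, -0.069 and -0.036 for footprints, and between RNA and footprints 0.17, 0.18 and 0.41 under actD and 0.14, 0.053 and 0.14 under DMSO, 5 of these 6 above 0.1. With the replicate number as a block, the LAMTOR2 calls in footprints and efficiency went from 1 to 0 (edgeR adjusted p = 0.145 and 0.105), and no other call among the pathway genes changed. Footprint depth limits what can be read of the members: at 72 h a count of 0 allows up to 3.57 to 37.3 CPM.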
